A study of Mus musculus with 6 samples.

Results

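The genes described here are 10 components of Nodal and TGF-beta signalling in mouse embryonic stem cells, taken by symbol from a list: the ligand Nodal, its secreted antagonists Lefty1 and Lefty2, the receptors Tgfbr1, Tgfbr2, Acvr2a and Acvr2b, the signal transducers Smad2 and Smad3, and the feedback inhibitor Smad7. All 10 were found among the 21978 rows of the table, and all 10 passed the filter on low counts. Poly(A)-selected RNA was sequenced in 6 libraries that formed 3 groups of 2. KO cells were labelled DGCR8 -/-, were not transfected, and both titles carry clone number 261 (libraries 1 and 3). The wt cells (clones 12 and 16) were labelled DGCR8 wt/wt and had received pSB ET iE-FlagDGCR8-wt with pCMV(CAT)-SB100X, a transposon vector for Flag-tagged DGCR8 and the plasmid for its transposase. The E518K cells (clones 8 and 15) were labelled DGCR8 E518K/E518K and had received the matching vector with the substitution. All cells, KO included, had doxycycline at 300 ng/mL for 48 h, and all grew without feeders in serum medium with LIF and the inhibitors CHIR99021 (of GSK3) and PD0325901 (of MEK). Each group is thus 1 or 2 clonal lines, and the labels do not name the parent line of the transfected clones.

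Nodal and the activins bind type II receptors such as Acvr2a and Acvr2b, TGF-beta binds Tgfbr2, and each complex then activates a type I receptor (Tgfbr1 for TGF-beta) that phosphorylates Smad2 and Smad3. Lefty1 and Lefty2 are secreted inhibitors of Nodal and are themselves induced by it, and Smad7 blocks the activated receptors from inside the cell. DGCR8 binds RNA and works with Drosha to cut most miRNAs from their primary transcripts, and Lefty genes and Tgfbr2 are known targets of the miR-290 and miR-302 families, which are abundant in pluripotent cells.

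The mature miRNAs of these families are shown because their seed, bases 2 to 8 counted from the 5′ end and set in capitals, was searched for in the 3′ UTRs of the 10 genes. The sequences are from RefSeq on GRCm38.p6, and the first 5 share 1 seed, miR-290a differs from it in its last base, and miR-17 and miR-20a share another that contains 6 of the same bases.
mmu-miR-291a-3p: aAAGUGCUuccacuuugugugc
mmu-miR-294-3p: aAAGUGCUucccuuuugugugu
mmu-miR-295-3p: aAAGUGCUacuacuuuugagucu
mmu-miR-302b-3p: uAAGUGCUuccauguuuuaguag
mmu-miR-302d-3p: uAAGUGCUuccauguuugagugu
mmu-miR-290a-3p: aAAGUGCCgccuaguuuuaagccc
mmu-miR-17-5p: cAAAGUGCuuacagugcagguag
mmu-miR-20a-5p: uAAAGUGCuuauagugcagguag

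The match to the shared seed is AGCACTT, and it was read on the transcript strand only, in the longest GENCODE M21 3′ UTR of each gene. Lefty1, Lefty2 and Tgfbr1 held 1 match each, and Tgfbr2 and Smad2 held 3 each. Nodal, Acvr2a, Acvr2b, Smad3 and Smad7 held none. Of 18873 genes with a 3′ UTR of at least 20 bases, 15.4% held at least 1 match and 0.578% held 3 or more, at a median UTR length of 1029 bases. The UTRs of Tgfbr2 and Smad2 are much longer than that, at 6085 and 6233 bases. The windows printed here, on GRCm38 with the match in capitals, are those of Lefty1, Lefty2, Tgfbr1, Tgfbr2 and Nodal.
Lefty1 (chr1:180938203-180938227, plus strand): ctgtatgcgaAGCACTTacatgtat
Lefty2 (chr1:180897907-180897931, plus strand): acccagtttaAGCACTTacatgggt
Tgfbr1 (chr4:47411109-47411133, plus strand): cactaaatgaAGCACTTctgatttt
Tgfbr2 first match (chr9:116089873-116089897, minus strand): ggatagcgttAGCACTTgacaatca
Tgfbr2 second match (chr9:116087764-116087788, minus strand): caaaacctaaAGCACTTattttcaa
Tgfbr2 last match (chr9:116085348-116085372, minus strand): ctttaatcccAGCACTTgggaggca
Tgfbr2 match to miR-17 and miR-20a (chr9:116090066-116090090, minus strand): aataacgtttGCACTTTattaatgc
Nodal match to miR-290a (chr10:61425221-61425245, plus strand): cagagaggtgGGCACTTgtccaaga

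In the Lefty1, Lefty2 and second Tgfbr2 windows the match to the shared seed is followed by A, which makes it an 8mer, and the others of that seed are 7mers. The central 15 bases of the last AGCACTT window of Tgfbr2 also stand in the annotated 3′ UTRs of 224 other genes (1.19%), whereas those of its other 2 AGCACTT windows stand in none. The match to the miR-290a seed, GGCACTT, was found in Nodal alone among the 10 genes, and 8.50% of all UTRs held it. The match to the miR-17 and miR-20a seed, GCACTTT, overlaps AGCACTT by 6 bases and stood at 1 place in Tgfbr2, at 2 places in Smad2, where it overlaps the last 2 AGCACTT matches, and at 1 place in Smad7, against 12.5% of all UTRs. A match describes letters in a UTR, and no binding was measured here.

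**Figure D1:**
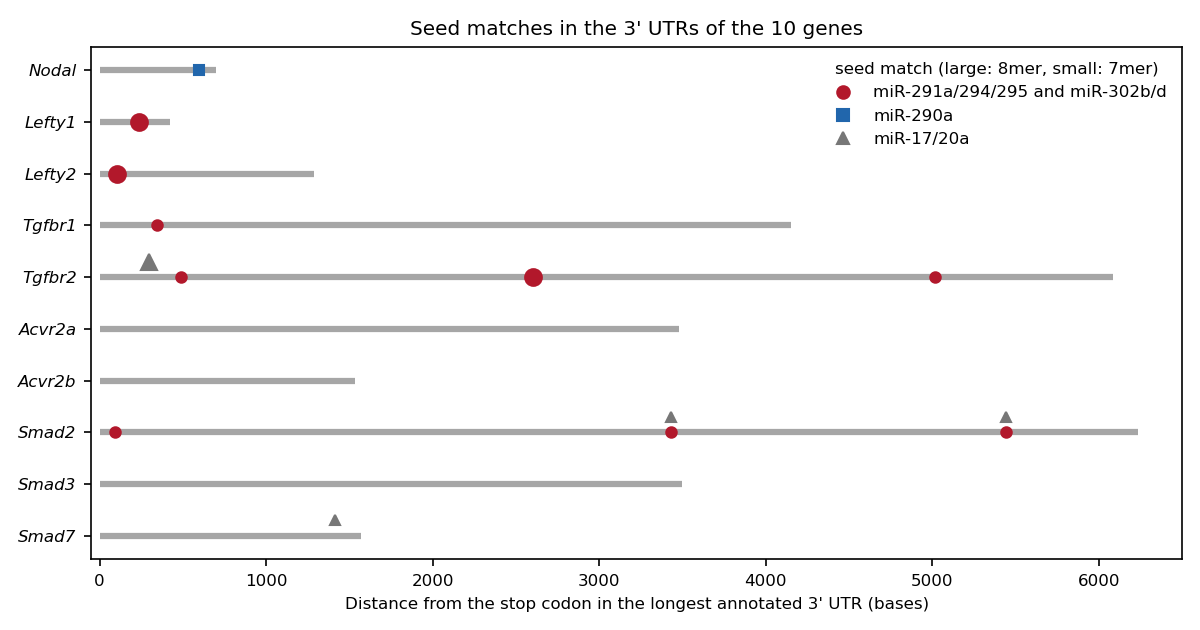
Positions of seed matches along the longest annotated 3′ UTR of each of the 10 genes, in bases from the stop codon. Grey bars are UTRs, large symbols 8mers and small symbols 7mers; Tgfbr2 and Smad2 carry 3 matches to the shared seed, and Acvr2a, Acvr2b and Smad3 carry no match of any of the 3 kinds.

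Library totals ranged from 73642784 to 75121971 counts. Dgcr8, the gene that defines the groups, stood at 40.0 and 37.1 CPM in KO, 196 and 992 CPM in wt, and 821 and 420.2 CPM in E518K, where CPM are counts scaled to library size with TMM factors. The 2 wt clones thus lay on either side of the E518K clones, and the labels do not say which part of the gene is missing in KO, whose counts cover the whole span. All 8 stem cell markers checked (among them Pou5f1, Sox2 and Nanog) stood at 139 CPM (Klf4) or more in every library, with summed levels of 5239 to 5341 CPM in KO, 5993 to 6972 CPM in wt and 6246 to 6272 CPM in E518K. Markers of other lineages were far lower. Their sums were 24.2 to 68.7 CPM for primitive endoderm and 58.9 to 87.9 CPM for trophectoderm. For mesendoderm they were 18.4 to 34.7 CPM and for fibroblasts 3.57 to 7.56 CPM. The primitive endoderm sum was highest in wt (68.7 and 41.0 CPM), where Lama1 alone gave 62.2 and 33.1 CPM. Elf5 of the trophectoderm list had at most 0.0278 CPM, and Foxa2 of the mesendoderm list at most 0.216 CPM. In KO against wt, where 29.7% of all genes were lower and 27.4% higher, 6 of the 8 stem cell markers were lower and 1 was higher. Of 6 primitive endoderm markers, 3 were lower and 3 did not pass the test. The lower ones were Lama1, Gata6 and Sox17, the last with at most 0.359 CPM in any library and Gata6 with at most 0.568 CPM. The part of these markers in the results that follow was not tested.

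Compared per length, as deposited TPM, Lefty2 was the highest of the 10 genes in wt (711 ± 144, SD, n = 2) and in E518K (689 ± 34.2), and Lefty1 was the highest in KO (685 ± 90.4). Nodal came next after the 2 Lefty genes in each group, at 100.3 ± 10.8 TPM in wt, and then Smad7, at 28.6 ± 3.47 TPM in wt. Smad2, Acvr2b and Tgfbr1 followed in wt at 3.63, 3.33 and 2.72 TPM with overlapping libraries, then Smad3 at 1.32 TPM and Acvr2a at 0.783 TPM. Tgfbr2 was the lowest in every group, at 0.0455 ± 0.0110 TPM in wt. The length behind these TPM values was the genomic span of the gene, introns included, for 9 of the 10 genes, and 92.5% of it for Smad2. Per kilobase of exon instead, the first 4 places, Acvr2a and Tgfbr2 kept their rank in all 3 groups, and only the order of Smad2, Smad3, Tgfbr1 and Acvr2b changed in wt and KO.

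In KO against wt, 6 of the 10 genes were higher (27.4% of all genes) and 2 were lower (29.7% of all genes). Tgfbr2 rose most, then Lefty1, Smad3, Tgfbr1, Smad2 and Nodal, while Lefty2 and Smad7 fell. Acvr2a and Acvr2b did not pass the test. Of all 16498 genes tested, 57.2% passed in this comparison (adjusted p below 0.05), so 8 of 10 has to be read against a background in which most genes differ. The median log2 fold change was 0.56 over the 10 genes and -0.02 over all genes. RNA was taken from whole cultures, so fewer cells that express a gene and less RNA per cell cannot be told apart.

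**Figure D2:**
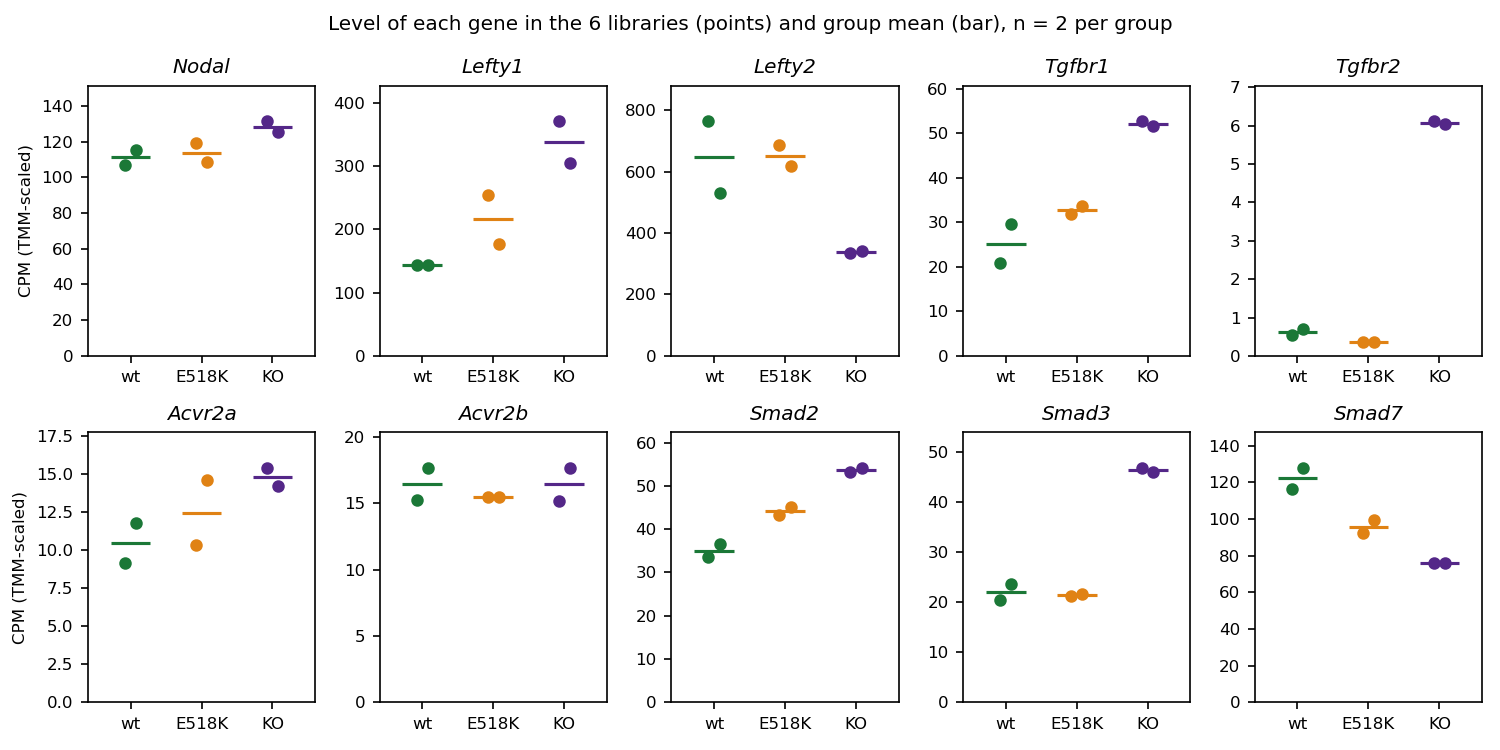
Level of each of the 10 genes in CPM (TMM-scaled, axis from 0) in the libraries of wt, E518K and KO. Points are libraries and bars are group means (n = 2); Tgfbr2 lies near 6 CPM in both KO libraries and below 1 CPM in the other 4, while Lefty2 is lower in KO.

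Nodal, the ligand (chromosome 10, 61417972 to 61425338, GRCm38), changed little. It stood at 131 and 125 CPM in KO, 107 and 115 CPM in wt, and 119 and 109 CPM in E518K. The KO libraries were the highest, and those of wt and E518K overlapped. Nodal rose by 0.21 ± 0.07 (log2 fold change and SE) between wt and KO (adjusted p = 0.0468 in edgeR). This call did not hold in 9 of 12 alternatives, among them leaving out KO 1 (0.17, adjusted p = 0.270), KO 3 (0.24, adjusted p = 0.135), wt 12 (0.15, adjusted p = 0.0863), E518K 8 (0.20, adjusted p = 0.0552) or E518K 15 (0.20, adjusted p = 0.0598), and upper-quartile scaling (0.15, adjusted p = 0.157). E518K against wt gave 0.03 ± 0.07 (adjusted p = 0.771), and upper-quartile scaling turned its sign (-0.01). E518K against KO gave -0.17 ± 0.07 (adjusted p = 0.101), and it passed without wt 12 (-0.17, adjusted p = 0.0288) or wt 16 (-0.17, adjusted p = 0.0295).

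The antagonists Lefty1 and Lefty2 lie close together on chromosome 1 (180935022 to 180938400 and 180893108 to 180899103, plus strand) and moved in opposite directions in KO. Lefty1 stood at 371 and 306 CPM in KO, 143 and 144 CPM in wt, and 255 and 176 CPM in E518K. The 3 groups did not overlap for Lefty1, with wt lowest, E518K between and KO highest. It rose by 1.24 ± 0.17 on the log2 scale in KO against wt, a 2.35-fold difference (adjusted p = 8.94e-04). Lefty2 stood at 335 and 342 CPM in KO, 764 and 529.6 CPM in wt, and 685 and 617 CPM in E518K. Both KO libraries were below the other 4, and the E518K libraries lay inside the range of wt. Lefty2 fell by 0.93 ± 0.15 in KO against wt, a 1.91-fold difference (adjusted p = 0.00199), and both calls held in all 12 alternatives, as did that of Lefty2 in E518K against KO (0.94 ± 0.15, adjusted p = 0.00299).

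The ratio of Lefty1 to Lefty2, taken per length within each library, was 0.333 in wt 12, 0.482 in wt 16, 0.660 in E518K 8, 0.507 in E518K 15, 1.96 in KO 1 and 1.59 in KO 3. On this scale, where length is the genomic span, Lefty1 exceeded Lefty2 only in the 2 KO libraries of the 6. By counts alone the ratio was 1.11 in KO 1 and 0.894 in KO 3. The summed level of both genes was 706 and 647 CPM in KO, 907 and 673 CPM in wt, and 940.0 and 793 CPM in E518K, with KO and wt overlapping. Both UTRs carry the 8mer shown above. The transcripts are similar, and 4.80% of the 100-base windows of the Lefty1 transcript stand unchanged in Lefty2, where 100 bases is the length of 1 read of a pair. For 50-base windows the share was 17.9%, and seen from Lefty2 the shares were 3.07% and 11.6%, so some reads may be placed on either gene. The sources do not say how such reads were counted.

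**Figure D3:**
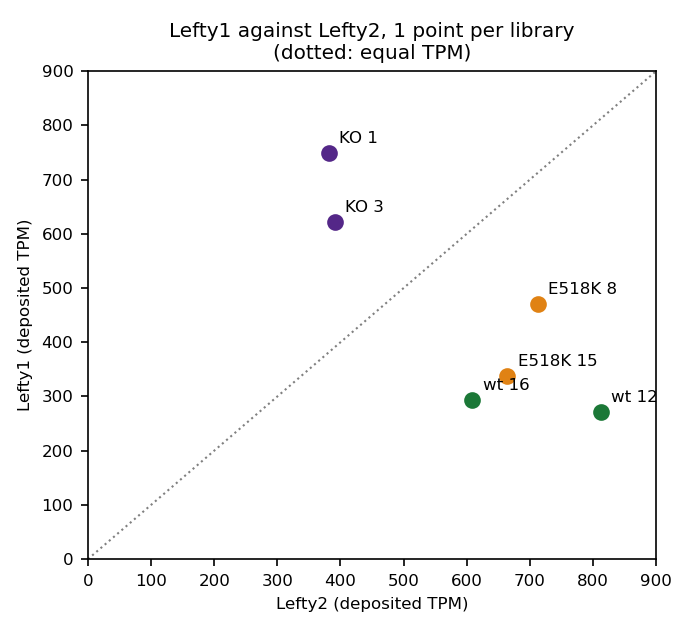
Deposited TPM of Lefty1 (vertical) against Lefty2 (horizontal), 1 point per library, with a dotted line of equal TPM. The 2 KO libraries lie above the line and the other 4 below it.

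In E518K, Lefty1 was 0.59 ± 0.17 above wt on the log2 scale (adjusted p = 0.0439) and 0.65 ± 0.17 below KO (-0.65, adjusted p = 0.0186). The call against wt was kept without E518K 15 but not without any other library. It was lost without KO 1 or KO 3 (0.59 in both; adjusted p = 0.0607 and 0.0605), wt 12 or wt 16 (0.59 in both; adjusted p = 0.224 and 0.199) and E518K 8 (0.30, adjusted p = 0.186). The call against KO was lost without KO 1 (-0.50, adjusted p = 0.116), wt 12 or wt 16 (-0.65 and -0.64; adjusted p = 0.0881 and 0.0905) and E518K 15 (-0.39, adjusted p = 0.0790). Over all 12 alternatives the first call was lost in 10, limma among them (0.50, adjusted p = 0.124), and the second in 6. Lefty2 differed by 0.01 ± 0.15 between E518K and wt (adjusted p = 0.971), and the sign depended on which wt clone was used. Without wt 12 it was 0.30 (adjusted p = 0.0117) and without wt 16 it was -0.23 (adjusted p = 0.0241).

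Tgfbr2, the type II receptor for TGF-beta (chromosome 9, 116084293 to 116175360, minus strand), had the largest difference of the 10 genes. Its raw counts were 473 and 466 for KO, 39 and 52 for wt, and 26 and 26 for E518K. On the CPM scale these were 6.12 and 6.04 for KO, 0.538 and 0.703 for wt, and 0.361 and 0.357 for E518K. The groups did not overlap, with KO highest and E518K lowest. Tgfbr2 rose by 3.29 ± 0.23 in KO against wt, 9.77-fold (adjusted p = 6.91e-05). It was 16.9-fold lower in E518K than in KO (-4.08 ± 0.25, adjusted p = 1.11e-04), and both calls held in all 12 alternatives, with values of 0.48 and -0.51 on the log2(TPM + 1) scale, where a gene this low is compressed. Between E518K and wt it stood at -0.79 ± 0.26 (adjusted p = 0.0633), and this passed without wt 12 (-0.96, adjusted p = 0.0263). Per length, its level in KO was still the lowest of the 10 genes there (0.457 TPM).

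Tgfbr1, the type I receptor that pairs with Tgfbr2 (chromosome 4, 47353222 to 47414931), was also highest in KO. It stood at 52.7 and 51.6 CPM in KO, 20.7 and 29.5 CPM in wt, and 31.8 and 33.5 CPM in E518K. The groups did not overlap, but wt 16 lay close to the E518K libraries. It rose by 1.05 ± 0.15 in KO against wt (adjusted p = 0.00114), held in all 12 alternatives. E518K lay 0.67 ± 0.15 below KO (-0.67, adjusted p = 0.0109), a call lost without KO 1 (-0.65, adjusted p = 0.0622), KO 3 (-0.69, adjusted p = 0.0541), E518K 8 (-0.63, adjusted p = 0.0907) or E518K 15 (-0.69, adjusted p = 0.0676), and in 5 of 12 alternatives in all. E518K against wt gave 0.38 ± 0.15 (adjusted p = 0.114), and without wt 16 this was 0.66 (adjusted p = 2.79e-04).

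The type II activin and Nodal receptors did not pass in any comparison. Acvr2a (chromosome 2, 48814109 to 48903269) stood at 15.4 and 14.2 CPM in KO, 9.15 and 11.8 CPM in wt, and 10.3 and 14.6 CPM in E518K. The KO libraries lay above those of wt and overlapped E518K. KO against wt gave 0.50 ± 0.19 (adjusted p = 0.0617), and this passed in 5 of 12 alternatives, among them DESeq2 (0.51, adjusted p = 0.0262) and leaving out wt 16 (0.69, adjusted p = 0.0220), E518K 8 (0.50, adjusted p = 0.0452) or E518K 15 (0.49, adjusted p = 0.0488). The last 446 bases of its span overlap Orc4, a replication gene on the opposite strand with 1964 to 3162 counts per library, so some reads can belong to either. Acvr2b (chromosome 9, 119402118 to 119434995; an annotated antisense gene, Gm47320, lies on the other strand) stood at 15.2 and 17.7 CPM in KO, 15.2 and 17.7 CPM in wt, and 15.5 and 15.5 CPM in E518K. All 3 groups overlapped or lay within each other, and the values were -0.0030 ± 0.12 in KO against wt (adjusted p = 0.984), -0.09 ± 0.12 in E518K against wt (adjusted p = 0.635) and, with KO as the reference for E518K, -0.08 ± 0.12 (adjusted p = 0.608). The sign of each flipped in at least 1 alternative.

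Smad2 and Smad3, the transducers, both rose in KO but differed in E518K. Smad2 (chromosome 18, 76241580 to 76310963) stood at 53.3 and 54.2 CPM in KO, 33.6 and 36.5 CPM in wt, and 43.2 and 45.1 CPM in E518K, 3 separate levels with E518K in the middle. It rose by 0.62 ± 0.08 in KO against wt (adjusted p = 5.77e-04), in all 12 alternatives. Smad3 (chromosome 9, 63646767 to 63757994) stood at 46.9 and 46.1 CPM in KO, 20.4 and 23.7 CPM in wt, and 21.3 and 21.8 CPM in E518K. Here the E518K libraries lay within the range of wt, and KO stood apart. Smad3 rose by 1.08 ± 0.10 in KO against wt, 2.11-fold (adjusted p = 1.48e-04), and was lower by 1.11 ± 0.10 in E518K than in KO (-1.11, adjusted p = 3.26e-04), both in all 12 alternatives. E518K and wt differed for Smad3 by -0.04 ± 0.10 (adjusted p = 0.810), and without wt 16 by 0.08 (adjusted p = 0.453).

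Smad2 was 0.33 ± 0.08 higher in E518K than in wt (adjusted p = 0.0222) and 0.28 ± 0.08 lower than in KO (-0.28, adjusted p = 0.0214). The first call was lost without KO 1 or KO 3 (0.33 in both; adjusted p = 0.0774 and 0.0776), E518K 8 (0.37, adjusted p = 0.0682) or E518K 15 (0.31, adjusted p = 0.118). The second was lost without KO 1 (-0.29, adjusted p = 0.139), KO 3 (-0.27, adjusted p = 0.167), E518K 8 (-0.25, adjusted p = 0.115) or E518K 15 (-0.30, adjusted p = 0.0693). Over all 12 alternatives the first call was lost in 7, limma on log2(TPM + 1) among them (0.22, adjusted p = 0.152), and the second in 5. Smad2 carries 3 matches to the shared seed and Smad3 carries none.

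Smad7, the inhibitory SMAD (chromosome 18, 75367529 to 75395935), ran the other way. It stood at 76.2 and 76.0 CPM in KO, 116 and 128 CPM in wt, and 92.2 and 99.6 CPM in E518K, with no overlap and E518K in the middle. It fell by 0.68 ± 0.07 in KO against wt, 1.61-fold (adjusted p = 3.33e-04), in all 12 alternatives. In E518K it was lower than in wt by 0.35 ± 0.07 (-0.35, adjusted p = 0.0171) and higher than in KO by 0.33 ± 0.07 (adjusted p = 0.0102). The call against wt was lost without KO 1 or KO 3 (-0.35 in both; adjusted p = 0.0583 in both), E518K 8 (-0.29, adjusted p = 0.0967) or E518K 15 (-0.40, adjusted p = 0.0720). The call against KO was lost without KO 1 or KO 3 (0.34 in both; adjusted p = 0.0848 and 0.0872) or E518K 15 (0.30, adjusted p = 0.0556), and with limma on log2(TPM + 1) (0.21, adjusted p = 0.162). Over all 12 alternatives the call against wt was lost in 7, limma among them (-0.40, adjusted p = 0.0574), and the call against KO in 5.

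**Figure D4:**
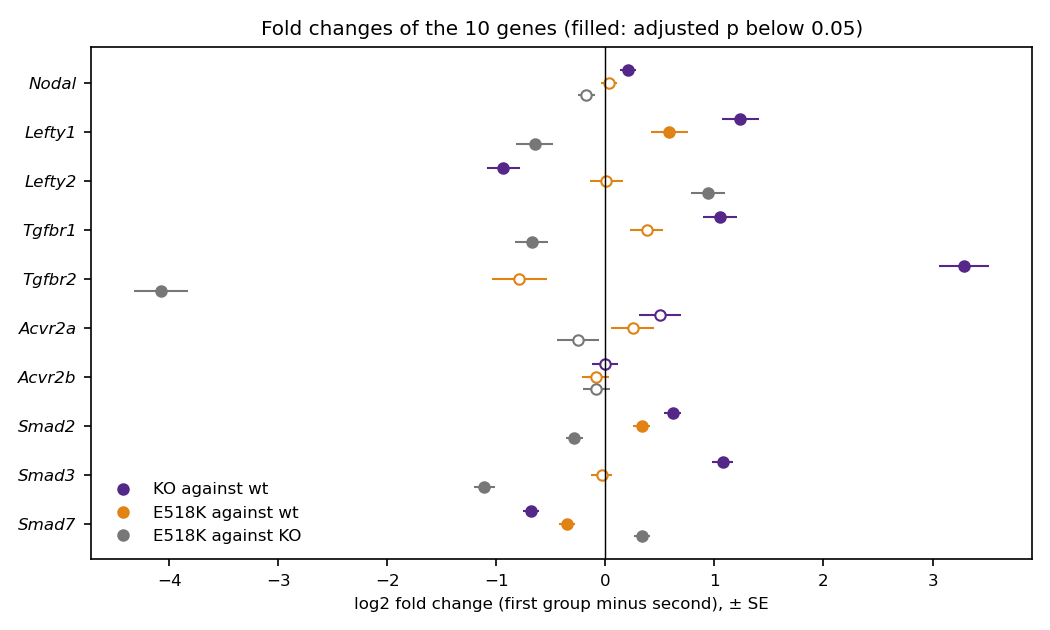
Log2 fold change of each of the 10 genes in the 3 comparisons, with SE from the edgeR fit as bars. Filled points passed the test; 8 of 10 are filled for KO against wt, 3 for E518K against wt and 7 for E518K against KO, and the comparisons share libraries.

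Over the 10 genes, E518K against wt gave 2 higher (Lefty1 and Smad2; 11.3% of all genes) and 1 lower (Smad7; 12.5% of all genes), against 23.7% of all genes called. The count of 3 became 4 without either wt library, 1 without E518K 15 and 0 without KO 1, KO 3 or E518K 8, where edgeR gave 3 genes at an unadjusted p below 0.05 in each case. Lefty1 was not called without wt 12 or without wt 16. Lefty2 was, with opposite signs (0.30 and -0.23 on the log2 scale). E518K against KO gave 2 higher (Lefty2 and Smad7) and 5 lower (Lefty1, Tgfbr1, Tgfbr2, Smad2 and Smad3). Of all genes, 41.8% were called there (22% higher and 19.8% lower). The count of 7 became 3 without KO 1 or E518K 15, 4 without KO 3 and 5 without E518K 8. The groups were fully separated for 9 of 10 genes in KO against wt (81.7% of all genes), 5 in E518K against wt (62% of all genes) and 8 in E518K against KO (80.5% of all genes). These 3 comparisons share their libraries, so their counts are not independent.

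With wt set at 0% and KO at 100% on the log2 scale, E518K stood at 54.0% for Smad2 (49.7% to 59.5% when each library in turn was left out), 51.2% for Smad7 (42.7% to 57.2%), 47.4% for Lefty1 (24.0% to 68.4%) and 36.0% for Tgfbr1 (18.2% to 49.5%). For these 4 genes both E518K libraries lay between all wt and all KO libraries. How many of all genes do so was not counted. Only members that passed in KO against wt were given a place. E518K stood at -3.31% for Smad3 (-14.1% to 6.49%), -1.03% for Lefty2 (-46.5% to 19.5%) and -24.0% for Tgfbr2 (-31.0% to -16.7%), near or beyond the level of wt. Nodal changed too little for such a place to be read (16.2%, from -15.8% to 54.8%). The genes with an AGCACTT match are found in both sets: Smad2, Lefty1 and Tgfbr1 in the first, Lefty2 and Tgfbr2 in the second. Any link between the matches and these places was not tested.

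Of 64 further genes of the pathway, in 6 lists by role, 62 were tested. In KO against wt 21 were higher and 21 lower, against 27.4% and 29.7% of all genes, and their median was -0.08 on the log2 scale, beside -0.02 for all genes. Among ligands and cofactors 5 of 11 rose and 5 fell. Inhbb, the activin B subunit, rose by 3.29 ± 0.20, from 1.10 and 1.11 CPM in wt to 9.88 and 11.8 CPM in KO, with 1.26 and 1.54 CPM in E518K. Tdgf1 (Cripto), the coreceptor that Nodal needs, fell by 0.91 ± 0.10, from 389 and 387 CPM in wt to 200.3 and 213 CPM in KO. Gdf3, a Nodal-related ligand, rose by 0.71 ± 0.08, and Tgfb1 fell by 1.12 ± 0.20. Tgfb1 stood at no more than 3.97 CPM in any library.

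The counts of the next lists are to be read beside 27.4% of all genes higher and 29.7% lower in KO against wt. Among inhibitors and processing proteins 1 of 8 rose in KO (Furin, a protease that matures these ligands, by 0.46 ± 0.09) and 6 fell. The latent TGF-beta binding protein Ltbp1 fell by 1.64 ± 0.17, and the decoy receptor Bambi fell by 0.64 ± 0.13, a call lost without KO 3 (adjusted p = 0.0667 there). Of 9 other receptors 3 rose and 0 fell. They were Eng at 0.63 ± 0.09, Bmpr2 at 0.66 ± 0.11 and Bmpr1a at 0.49 ± 0.11, the first a TGF-beta coreceptor whose span overlaps that of Fpgs, and the others receptors for BMPs. Acvr1b, the type I receptor of Nodal and activin, stood at -0.24 (adjusted p = 0.0894). Among other SMADs and regulators 3 of 16 rose and 5 fell, and the changes were small. The corepressor genes Tgif2 and Tgif1 fell (-0.38 ± 0.07 and -0.35 ± 0.07), Ski, another corepressor, rose by 0.33 ± 0.07, and Smad4, the partner shared by all receptor-activated SMADs, fell by 0.31 ± 0.07. The call of Tgif1 was lost without KO 3 (adjusted p = 0.0545), that of Ski without KO 1 (adjusted p = 0.0586), and that of Smad4 without KO 1 or KO 3 (highest adjusted p over all alternatives 0.0770).

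Of 12 targets of Smad2 and Smad3, 6 rose in KO and 3 fell, beside 27.4% and 29.7% of all genes. Tgfbi, a secreted matrix protein induced by TGF-beta, fell by 4.89 ± 0.30, from 8.25 and 7.25 CPM in wt to 0.284 and 0.233 CPM in KO. The T-box gene Eomes fell by 0.95 ± 0.10, from 25.5 and 28.7 CPM to 13.7 and 14.4 CPM. Junb rose by 1.08 ± 0.13, and its span overlaps that of Prdx2. Eomes is also in the mesendoderm and trophectoderm marker lists. Of 6 targets of Smad1 and Smad5, 3 rose and 2 fell, with the inhibitors of differentiation Id1 at 2.92 ± 0.20, Id2 at 1.53 ± 0.16 and Id3 at 0.86 ± 0.08. Dusp9, a phosphatase of MAP kinases, fell by 2.83 ± 0.18.

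In E518K against wt, 5 of the 62 were higher and 13 lower, against 11.3% and 12.5% of all genes. Their median was -0.10, beside -0.02 for all genes. Gdf3 rose by 0.73 ± 0.08, to 201 and 224 CPM, close to its KO level (209 and 211 CPM). Bmp7 fell by 2.64 ± 0.26, from 24.9 and 14.9 CPM in wt to 3.53 and 2.87 CPM, below its level in KO (14.6 and 13.1 CPM). Tgfbi fell by 3.02 ± 0.27. Id3 rose by 1.38 ± 0.08 and Id1 by 1.44 ± 0.20, and Id3 was also higher than in KO (0.53 ± 0.08). The receptors Acvr1b and Acvr1 fell (-0.67 ± 0.11 and -0.59 ± 0.12), the latter with a span that overlaps Gm17409. Acvr1b lost its call without E518K 15 (adjusted p = 0.0837), and Acvr1 without KO 1, KO 3 or E518K 15 (highest adjusted p = 0.0997). Fst, follistatin, which binds and blocks activin, rose by 0.63 ± 0.11, a call lost without E518K 15 (adjusted p = 0.0913).

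In E518K against KO, 14 of the 62 were higher and 20 lower, against 22% and 19.8% of all genes. Their median was -0.18, beside -0.02 for all genes. Tdgf1 rose by 1.00 ± 0.10 and Eomes by 1.01 ± 0.10. E518K overlapped wt for both genes, at 28.7 and 27.9 CPM for Eomes and 369.7 and 457 CPM for Tdgf1. Inhbb fell by 2.95 ± 0.20, and Bmpr2 fell by 0.79 ± 0.11. For Tdgf1, Eomes and Lefty2 alike, both KO libraries were the lowest of the 6. Mesendoderm markers, Eomes included, summed to 18.4 and 19.5 CPM in KO, 29.3 and 32.4 CPM in wt, and 34.7 and 32.9 CPM in E518K. Eomes alone gave 13.7 and 14.4 CPM of this in KO, and 25.5 and 28.7 CPM in wt. Of the 5 markers, Eomes was lower in KO than in wt, Gsc was higher (1.03 ± 0.21) and 3 did not pass. Of all genes, 29.7% were lower and 27.4% higher there. The part of these markers in the Lefty2 result was not tested.

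**Figure D5:**
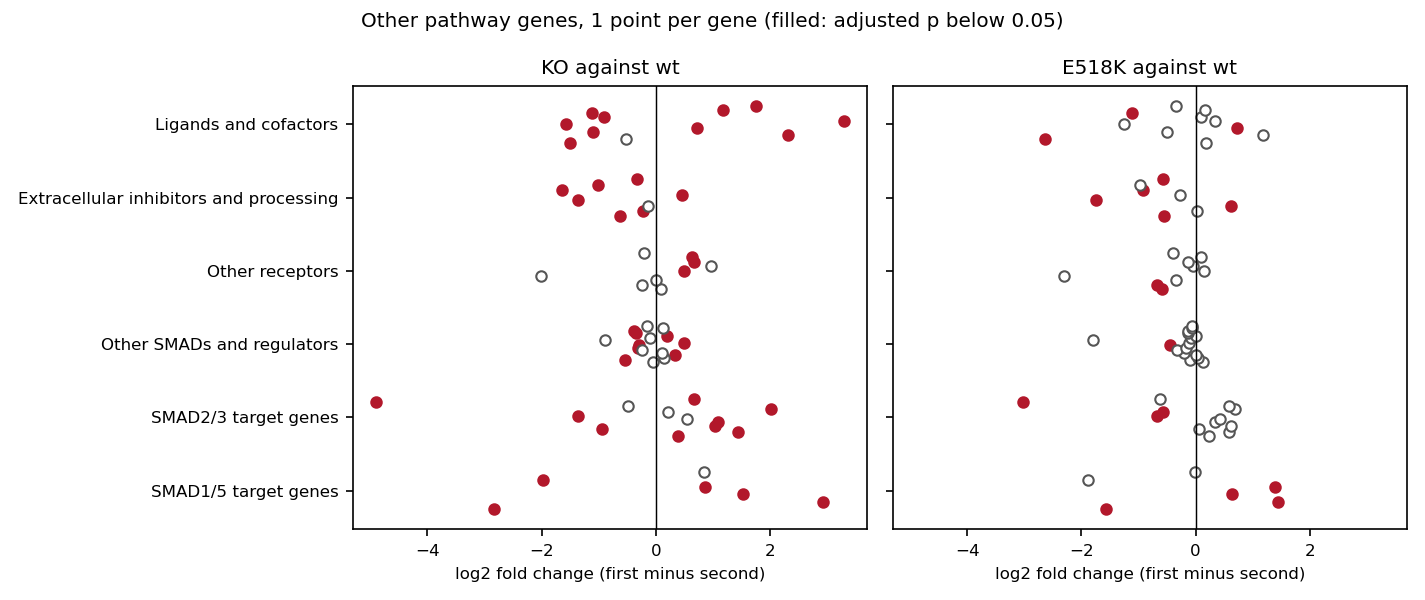
Log2 fold changes of 62 other pathway genes in 6 lists by role, in KO against wt (left) and E518K against wt (right), 1 point per gene. Filled points passed the edgeR test; 21 higher and 21 lower are filled on the left, 5 and 13 on the right.

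The genes outside the 10 whose log2 CPM followed a member most closely over the 6 libraries are given next. They are a description only, since many genes follow the groups. For Tgfbr2 they were Agpat4, Casp2, Rbl2, Rufy2 and Mxd4, with Pearson correlations of 0.997 to 0.999. Mxd4, an antagonist of MYC, stood at 9.18 and 8.79 CPM in KO, 1.46 and 1.97 CPM in wt, and 1.39 and 1.30 CPM in E518K. The spans of Rbl2 and Rufy2 overlap Aktip and Hnrnph3, as do those of Pip5k1b and mt-Nd5, named next, with Fam122a and mt-Nd6. For Lefty1 they were Hapln1, Ctxn1, Ubxn8, Sept8 and mt-Nd5 (0.987 to 0.990), and for Nodal they were Eif4g3, Pip5k1b, Slc12a8, Antxr1 and RP24-318I24.1 (0.984 to 0.989). None of these 15 is in the pathway lists.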

How the data were processed

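The count table deposited by the authors holds raw whole-number counts per gene symbol, and the TPM table deposited by the authors holds these counts divided by gene length and scaled to a common total. The submitters' processing notes name STAR, bedtools and the build GRCm38.p6, without settings or annotation. The length behind TPM was within 5% of the genomic span for 98.5% of 12499 genes. In nested gene pairs the enclosing gene had no fewer reads in 99.7% of 342 pairs on the same strand and 98.8% of 243 on opposite strands, so counts behaved as reads over whole spans, introns included, without strand.

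Counts were tested with edgeR 4.0.16 in R 4.3.3 (TMM factors, expression filter with a minimum count of 10, robust quasi-likelihood F tests, 1 fit of all 6 libraries with group as the only term, 3 residual degrees of freedom). P values were adjusted by Benjamini and Hochberg over 16498 genes, with a threshold of 0.05. The SE is the log2 fold change divided by the root of F. The series text speaks of independent clones, but both KO titles carry 1 clone number, so the spread within KO may be technical. The p values rest on the spread within all 3 groups, which in wt and E518K lies between clones. They do not cover differences between KO clones. KO was also the only group not transfected, so genotype, clone and transfection cannot be told apart in comparisons with KO. Counts of the KO pair differed less (chi-square per degree of freedom 3.55) than those of the wt (51.4) and E518K (21.6) pairs, but beyond counting noise.

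The 10 genes, the pathway lists and the markers were chosen with earlier results of these data known. Named genes are the 10 members, up to 4 called genes per list and comparison with the smallest p (average log2 CPM 0 or more), and the 5 genes most correlated with Nodal, Lefty1 and Tgfbr2 (average log2 CPM 1 or more). Acvr1b in KO is outside this rule and was chosen after its value was seen. Some genes that the rule takes in are not reported here. Alternatives were DESeq2 1.42.0, upper-quartile factors, no filter, limma 3.58.1 on log2(TPM + 1), only the 2 groups compared, the KO libraries summed, and each library left out. Sequences are from RefSeq (GRCm38.p6) and GENCODE M21 (GRCm38), and no sequence of chromosome 18 is printed.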

Additional observations from a re-analysis of the deposited data

How the results depend on the processing

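No paired analysis was possible because the groups share no replicate number. Over 12 alternatives in each of 3 comparisons, the values of the 10 genes kept direction and side of the threshold in 278 cases, lost the call in 54, gained one in 11 and turned in 17. With the KO libraries summed, genes called numbered 6163 in KO against wt (9429 in the fit reported), 1909 in E518K against wt (3917) and 3267 in E518K against KO (6902), and the 10 genes gave 0 calls in E518K against wt (edgeR, 4 at an unadjusted p below 0.05) and 3 in E518K against KO. With only the 2 groups compared, E518K against wt gave 1999 genes and 0 of the 10 (edgeR, 3 unadjusted), and limma on log2(TPM + 1) gave 0 of the 10 (2 unadjusted), whereas DESeq2 gave 3. Leaving out each library gave 6084 to 10958 genes in KO against wt, 644 (without E518K 15) to 6987 (without wt 16) in E518K against wt, and 3285 to 9482 in E518K against KO. Of the 10 genes it gave 7 to 9, 0 to 4 and 3 to 7. The share of calls that were higher in E518K than in wt was 47.5%, but 37.5% with upper-quartile factors and 26.8% with limma, and 60.1% without E518K 8 and 60.2% without E518K 15; in E518K against KO it was 52.7% and 40.7% with limma.

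Of the values that turned sign, that of Acvr2a in E518K against wt was 0.25 in the fit reported, and the others lay between -0.09 and 0.03. Acvr2b in KO against wt was 0.0068 with DESeq2, 0.032 with limma, 0.011 with the 2 groups alone, and -0.12 to 0.10 over left-out libraries. In E518K against wt, upper-quartile factors gave -0.014 for Nodal and -0.033 for Lefty2, and limma gave -0.029 and -0.031. Over left-out libraries that comparison gave -0.032 to 0.11 for Nodal, -0.23 to 0.30 for Lefty2, -0.010 to 0.48 for Acvr2a, -0.19 to 0.024 for Acvr2b and -0.14 to 0.077 for Smad3. In E518K against KO, Acvr2b ran from -0.19 to 0.032. Beyond the smaller number of libraries in some settings, the cause was not tested. Of the named pathway genes, 18 of 23 calls in KO against wt, 7 of 17 in E518K against wt and 14 of 24 in E518K against KO held in every alternative. Tgfbr2 in wt and E518K rests on 26 to 52 counts, which limits its precision there.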
